A study of Mus musculus with 4 samples.

Results

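Droplets rich in *Ttr* RNA were described in single-cell RNA sequencing of brain vessels from *Angpt2*-WT and *Angpt2*-KO mice. The members were chosen by measured values: a droplet was included when *Ttr* made up at least 1% of its UMIs (unique molecular identifiers, 1 per captured RNA molecule) and at least 2 of 7 choroid plexus markers were detected, namely *Folr1*, *Kl*, *Enpp2*, *Sostdc1*, *Ecrg4*, *Prlr* and *Trpm3*. This rule found 106 of 17999 kept droplets, which were those with over 500 genes and under 10% mitochondrial UMIs, out of 19809 barcodes. The members were split by their summed UMIs of *Kdr*, *Cldn5* and *Flt1*, genes of endothelial cells (ECs). The 35 droplets with under 3 such UMIs are called endothelial-poor, and the 71 droplets with 3 or more are called mixed.

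Vascular fragments were taken from the cerebra of 4 mice at 3 months of age, bound to magnetic beads through PECAM1, dissociated and loaded on the 10x Genomics 3′ platform, with 1 library per mouse. WT1 (female) and WT2 (male) were *Angpt2*-WT littermates, and KO1 (female) and KO2 (male) carried a constitutive *Angpt2* deletion (*Angpt2*-/-) made by *Pgk*-Cre recombination of a floxed allele on the C57BL6/J background. The deletion was present in all cells of those mice, the capture was directed at vessels and not at epithelium, and 3′ counts of *Angpt2* do not read the deleted exon, so they do not check the genotype labels. Where a gene's values follow as pairs, they are given in the order WT1 and WT2, then KO1 and KO2. Kept droplets held 32896366 and 42903731 UMIs in the *Angpt2*-WT and 32558112 and 31753395 in the *Angpt2*-KO libraries.

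The choroid plexus is a folded sheet of epithelium around fenestrated capillaries that hangs into the brain ventricles and secretes cerebrospinal fluid. Its cells are joined by tight junctions that form the barrier between blood and cerebrospinal fluid, carry ion pumps, bicarbonate transporters and water channels, and release carrier proteins. *Ttr* encodes transthyretin, the carrier of thyroid hormone and, with retinol-binding protein, of retinol, and it is among the most abundant transcripts of this epithelium. Within the brain it is used as a marker of the epithelium, and free *Ttr* RNA from broken cells can enter droplets of other cell types.

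Every mouse had members, but in unequal numbers. There were 18 and 30 members in the *Angpt2*-WT mice and 8 and 50 in the *Angpt2*-KO mice. As a share of the kept droplets of each library these were 0.445% in WT1 (95% exact Clopper-Pearson interval 0.264 to 0.703), 0.522% in WT2 (0.353 to 0.745), 0.276% in KO1 (0.119 to 0.543) and finally 0.941% in KO2 (0.699 to 1.24). Intervals cover counting error only. KO2 therefore held 47.2% of all members (37.4 to 57.1), and, as the bead capture can set these shares, genotypes were not tested. No barcode of a member occurred in another library, whereas 33 pairs of kept barcodes were shared between libraries.

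The excess in KO2 was in mixed droplets. Endothelial-poor droplets numbered 10 and 12 in the *Angpt2*-WT mice and 6 and 7 in the *Angpt2*-KO mice, and mixed droplets 8, 18, 2 and 43 in the same order. KO2 thus held 60.6% of mixed droplets (48.3 to 72.0). The endothelial-poor droplets were 0.247%, 0.209%, 0.207% and 0.132% of kept droplets, with intervals that overlapped in all 4 libraries. With KO2 left out, 56 members remained, of which 28 were mixed.

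**Figure D1:**
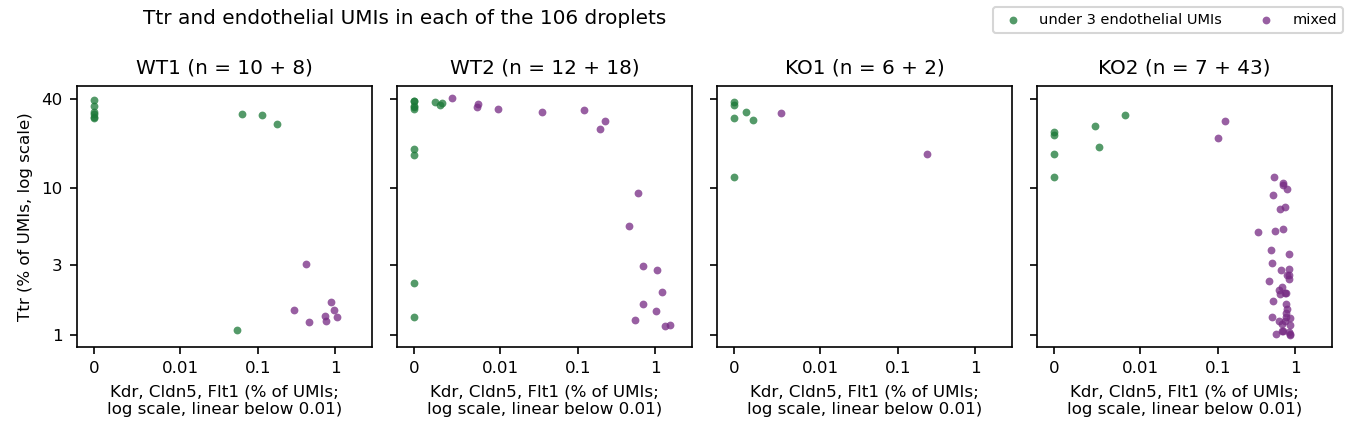
*Ttr* (vertical axis, percent of UMIs, log scale) against the summed *Kdr*, *Cldn5* and *Flt1* share (horizontal axis, percent of UMIs, log scale and linear below 0.01) for each member, in 1 panel per mouse, with the number of endothelial-poor plus mixed droplets in the titles. Droplets with little endothelial RNA mostly lie near 30% *Ttr*, and the dense column in KO2 holds mixed droplets with a median endothelial share of 0.704% and *Ttr* down to 1%.

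*Ttr*, which chose the members, dominated the endothelial-poor droplets. It made up 33.6% and 36.5% of their summed UMIs in the *Angpt2*-WT mice and 32.7% and 24.1% in the *Angpt2*-KO mice, with a mean of 31.7% ± 5.34 (SD, n = 4). Of the 35 droplets, 26 held at least 20% *Ttr* and 3 held under 5%. The data go against the epithelial label in those 3, each with 2 markers: the WT1 droplet with 1.09% *Ttr* also held 12 UMIs of the microglia genes *P2ry12*, *Cx3cr1* and *C1qa*, and the others came from WT2. No *Kdr*, *Cldn5* or *Flt1* UMI was found in 23 of the 35 droplets.

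The endothelial-poor droplets fell into a shallow and a deep set. There were 17 with under 3000 UMIs, 16 with 20000 UMIs or more and 2 between. WT1 contributed 9 of the shallow set and none of the deep set, and its median was 1721.5 UMIs, against 31053.5 in WT2, 25422 in KO1 and 29595 in KO2. All 16 deep droplets held all 7 markers, against 2 of the 17 shallow ones. The median *Ttr* share was 34.7% in the deep set (lowest 18.9, highest 39.1) and 30.0% in the shallow set (lowest 1.09, highest 36.7). The ranges overlapped, and other transcripts differed more. *Gm42418*, a gene model that overlaps ribosomal RNA, was at 126096 CPM (the UMIs of a gene scaled to a common total of the summed UMIs) in the shallow set and 19766 CPM in the deep set. *Enpp2* was at 7893 and 15568 CPM, and *Prlr* at 779.9 and 1712 CPM. Median mitochondrial shares were 3.44% and 8.68%, close to the limit of 10% in the deep set.

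Because WT1 rests on 29955 UMIs in this class, 1 UMI there is worth 33.4 CPM, against 3.36 in WT2, 5.59 in KO1 and 5.74 in KO2. Each value below is the level in summed endothelial-poor droplets of a library, in CPM, beside the level in the other endothelial droplets of the same 4 libraries (16000 droplets with 3 or more *Kdr*, *Cldn5* and *Flt1* UMIs that were not members). A gene is called 4-fold higher or lower when the ratio of CPM + 10 reached that size in each of the 4 libraries. As the members were chosen through *Ttr*, the markers and the endothelial genes, this is a description and no test was made.

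Among 9790 genes at 10 CPM or more in either class, 189 (1.93%) were 4-fold higher and 669 (6.83%) were 4-fold lower in endothelial-poor droplets. The median log2 ratio over these genes was -0.60, so list medians below are read beside that value. Over all epithelial lists outside the rule, 36 of 87 compared genes (41.4%) were called higher and 3 lower, with a median log2 ratio of 2.11. All 7 markers of the rule were called higher, which the rule fixes in part. *Enpp2* (autotaxin, which makes lysophosphatidic acid) was at 7311 and 13792 CPM in *Angpt2*-WT and 15088 and 18119 CPM in *Angpt2*-KO mice, against 94.8 to 172 CPM in other endothelial droplets. *Ecrg4* (a secreted peptide precursor) was at 3605 and 4204 CPM in *Angpt2*-WT and 4288 and 2866 CPM in *Angpt2*-KO mice. Both were abundant in every library. *Folr1*, the receptor that carries folate through the epithelium, varied least, at 1235 and 1422 CPM in *Angpt2*-WT and 1358 and 1240.5 CPM in *Angpt2*-KO mice. *Sostdc1*, a secreted antagonist of BMP and Wnt signalling, was at 1002 and 1193 CPM in *Angpt2*-WT and 867 and 919 CPM in *Angpt2*-KO mice. *Kl* (klotho, a co-receptor of FGF23) was at 668 and 1055 CPM in *Angpt2*-WT and 1263 and 1683 CPM in *Angpt2*-KO mice. *Kl* was above *Sostdc1* in both *Angpt2*-KO libraries. *Prlr*, the prolactin receptor, was at 501 and 1002 CPM in *Angpt2*-WT and 2214 and 2297 CPM in *Angpt2*-KO mice. *Trpm3*, a cation channel, was at 701 and 857 CPM in *Angpt2*-WT and 1526 and 2194 CPM in *Angpt2*-KO mice. In other endothelial droplets the markers apart from *Enpp2* were at 0.101 to 11.4 CPM.

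In 4 of the 7 markers, *Enpp2*, *Kl*, *Prlr* and *Trpm3*, both *Angpt2*-KO values lay above both *Angpt2*-WT values, and for *Sostdc1* both lay below. *Ttr* also lay below, at 335704 and 364790 CPM in *Angpt2*-WT and 326944 and 240632 CPM in *Angpt2*-KO mice. Of 1049 genes at 100 CPM or more in these droplets, 25.4% had both *Angpt2*-KO libraries above and 17% below, so such an order was common. WT1 had the fewest summed UMIs in these droplets, and the part of depth in these orders was not tested. Genotypes were not tested.

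Carrier and secreted proteins outside the rule were also at high levels. Of 15 listed genes, 14 were at a level to be compared, 9 were called higher and none lower (median log2 ratio 4.28). *Ptgds*, prostaglandin D synthase and a carrier in cerebrospinal fluid, was at 1636 and 3102 CPM in *Angpt2*-WT and 1649 and 2194 CPM in *Angpt2*-KO mice, against 0.939 to 6.33 CPM in other endothelial droplets. *Igfbp2*, a binding protein for insulin-like growth factors, was at 1135 and 2151 CPM in *Angpt2*-WT and 2376 and 2136 CPM in *Angpt2*-KO mice, against 0.369 to 6.79 CPM. *Clu* (clusterin) was at 1035 and 1354 CPM in *Angpt2*-WT and 1599 and 1654 CPM in *Angpt2*-KO mice, against 29.6 to 59.8 CPM. These 3 genes were separated from ECs in every library without overlap. *Apoe* (apolipoprotein E) was abundant at 3539 and 3586 CPM in *Angpt2*-WT and 3075 and 3899.5 CPM in *Angpt2*-KO mice but also present at 692 to 1177 CPM in other endothelial droplets, and so was *Cst3* (cystatin C) at 1976 to 2289 CPM against 1155 to 1620.1 CPM. *Igf2* was at 467 and 195 CPM in *Angpt2*-WT and 654 and 890.2 CPM in *Angpt2*-KO mice, and *Trf* (transferrin) at 334 and 343 CPM in *Angpt2*-WT and 123 and 528 CPM in *Angpt2*-KO mice, both called higher. Microglia droplets were non-members with under 3 endothelial UMIs and 3 or more UMIs of *P2ry12*, *Cx3cr1* and *C1qa*. They held more *Trf* and *Cst3* than endothelial-poor droplets in every library, at 558 to 667 CPM and 35731 to 49654 CPM. *Penk* had no UMI in these droplets.

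**Figure D2:**
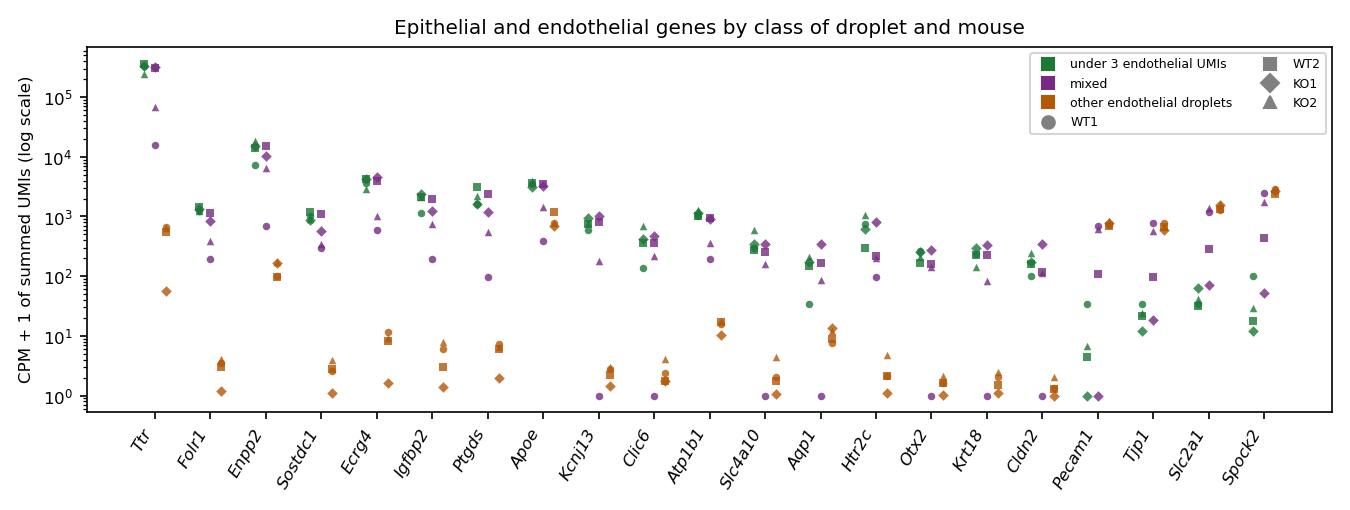
Levels of 21 genes (vertical axis, CPM + 1 of summed UMIs, log scale) in endothelial-poor, mixed and other endothelial droplets, with 1 symbol per mouse. The first 16 genes after *Ttr* are epithelial and the last 4 endothelial or barrier genes, and for most epithelial genes the 4 endothelial-poor values lie above all other endothelial values, while mixed values spread between the classes.

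Ion and water transport genes of the secreting epithelium were the second large group. Of 18 listed genes, 10 were called higher and none lower (median log2 ratio 3.51). *Atp1b1*, a subunit of the sodium pump, was at 1002 and 1015 CPM in *Angpt2*-WT and 1140.4 and 1263 CPM in *Angpt2*-KO mice, against 9.29 to 16.8 CPM. *Fxyd1*, a regulator of that pump, was at 568 and 1304 CPM in *Angpt2*-WT and 1208 and 1045 CPM in *Angpt2*-KO mice, against 7.78 to 13.2 CPM. Among potassium channel genes, *Kcnj13* was at 601 and 749 CPM in *Angpt2*-WT and 934 and 787 CPM in *Angpt2*-KO mice and *Kcne2*, which encodes an accessory channel subunit, at 701 and 359.6 CPM in *Angpt2*-WT and 302 and 551 CPM in *Angpt2*-KO mice. Neither exceeded 2.02 CPM in other endothelial droplets. *Kcnq1*, which encodes a pore that can pair with KCNE2, had no UMI in the endothelial-poor droplets. The bicarbonate transporter *Slc4a10* was at 300.5 and 269 CPM in *Angpt2*-WT and 341 and 586 CPM in *Angpt2*-KO mice. The related *Slc4a5* was at 100.2 and 171 CPM in *Angpt2*-WT and 212 and 333 CPM in *Angpt2*-KO mice. Both had their highest value in KO2. The cotransporter *Slc12a2*, which takes up sodium, potassium and chloride, was at 501 and 423 CPM in *Angpt2*-WT and 492 and 884 CPM in *Angpt2*-KO mice, against 29.7 to 72.7 CPM. *Clic6*, a chloride channel family member, was at 134 and 353 CPM in *Angpt2*-WT and 419 and 689 CPM in *Angpt2*-KO mice. *Aqp1*, the water channel of the apical membrane, was at 33.4 and 148 CPM in *Angpt2*-WT and 173 and 207 CPM in *Angpt2*-KO mice, against 6.46 to 12.7 CPM, and missed the call because WT1 had 1 UMI.

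Nutrient and drug transporters were split. Of 18 listed genes 13 were compared, 6 were called higher and 1 lower. The sulfate transporter *Slc13a4* was at 200.3 and 168 CPM in *Angpt2*-WT and 240.4 and 281 CPM in *Angpt2*-KO mice, and the metalloreductase gene *Steap1* at 234 and 279 CPM in *Angpt2*-WT and 240.4 and 379 CPM in *Angpt2*-KO mice. *Slc16a8*, a lactate transporter, was at 66.8 and 138 CPM in *Angpt2*-WT and 268 and 138 CPM in *Angpt2*-KO mice. Each was at 1.22 CPM or less in other endothelial droplets. *Slco1c1*, a thyroid hormone transporter, was lower in endothelial-poor droplets than in ECs, at 467 and 346 CPM in *Angpt2*-WT and 458 and 488 CPM in *Angpt2*-KO mice against 1182 to 1479 CPM, and did not reach the call. *Abcc4* was called lower, at 0 to 40.2 CPM against 177 to 216 CPM.

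Receptors gave 2 genes higher and 1 lower of 11 compared. *Htr2c*, the serotonin receptor long studied in this epithelium, was at 734 and 299 CPM in *Angpt2*-WT and 615 and 1074 CPM in *Angpt2*-KO mice, against 0.101 to 3.87 CPM. *F5*, coagulation factor V, was listed with the receptors and was at 200.3 and 272 CPM in *Angpt2*-WT and 403 and 408 CPM in *Angpt2*-KO mice. *Cd9* was at 546 to 702 CPM against 72.4 to 193 CPM and did not reach the call. In microglia droplets *Cd9* was at 1346 to 1744 CPM. The insulin receptor *Insr* was called lower, at 0 to 39.1 CPM against 164 to 265 CPM. *Lrp2*, *Oprl1* and *Avpr1a* had no UMI, and *Ramp1* and *Tnfrsf21* had none either. With 680510 UMIs in the class, 3 UMIs would be 100.2 and 10.1 CPM in the *Angpt2*-WT mice and 16.8 and 17.2 CPM in the *Angpt2*-KO mice, which is the level that a gene with no UMI still allows.

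The junction and cytoskeleton genes set the droplets apart from endothelium in both directions. Of 13 compared, 6 were called higher and 1 lower. The keratin *Krt18* was at 234 and 225 CPM in *Angpt2*-WT and 296 and 144 CPM in *Angpt2*-KO mice. Its pairing partner *Krt8* was at 66.8 and 90.7 CPM in *Angpt2*-WT and 44.7 and 80.4 CPM in *Angpt2*-KO mice. *Cldn2*, the pore-forming claudin of leaky epithelia, was at 100.2 and 161 CPM in *Angpt2*-WT and 173 and 247 CPM in *Angpt2*-KO mice, and *Cldn1* was at 100.2 and 37 CPM in *Angpt2*-WT and 61.5 and 149 CPM in *Angpt2*-KO mice. None of these 4 exceeded 1.46 CPM in other endothelial droplets. *Ezr* (ezrin, a linker of microvilli) was at 601 and 259 CPM in *Angpt2*-WT and 453 and 385 CPM in *Angpt2*-KO mice. By contrast *Tjp1*, a junction scaffold that ECs also express, was called lower, at 11.2 to 33.4 CPM against 588 to 767 CPM, and *Ocln* was lower in value at 33.4 to 51.7 CPM against 226 to 261 CPM. *Cdh1* and *Epcam* had UMIs in KO2 only, at 5.74 and 28.7 CPM respectively.

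*Otx2*, a homeobox factor of the choroid plexus, was at 267 and 168 CPM in *Angpt2*-WT and 257 and 212 CPM in *Angpt2*-KO mice, against 0.0336 to 1.11 CPM. *Msx1*, another homeobox factor that was listed under both transcription factors and junction genes, was at 367 and 252 CPM in *Angpt2*-WT and 341 and 189.5 CPM in *Angpt2*-KO mice. These were the 2 genes called higher of 10 compared. *Foxj1*, a regulator of motile cilia, had no UMI in WT1 and was at 30.2 in WT2, 39.1 in KO1 and 34.5 in KO2. None of the 8 listed hindbrain Hox genes had a UMI in endothelial-poor or mixed droplets. Hox genes are expressed in the choroid plexus of the hindbrain, whereas cerebra were the source here, and levels up to those of 3 UMIs given above cannot be told from 0.

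Cilia genes were detected at low levels. Of 9 compared, *Rsph1* and *Dynlrb2* were called higher. *Rsph1*, a radial spoke gene, was at 100.2 and 131 CPM in *Angpt2*-WT and 67.1 and 149 CPM in *Angpt2*-KO mice. *Dynlrb2*, a dynein light chain gene, was at 33.4 and 47.1 CPM in *Angpt2*-WT and 78.3 and 34.5 CPM in *Angpt2*-KO mice. The ependymal list, markers of the ciliated cells that line the ventricles, had 2 of 5 compared genes called higher, *Dbi* and *Mia*. *Dbi*, which binds acyl-CoA, was the most abundant at 1669 and 1509 CPM in *Angpt2*-WT and 1582 and 1068 CPM in *Angpt2*-KO mice, and *Mia* was at 401 and 397 CPM in *Angpt2*-WT and 134 and 178 CPM in *Angpt2*-KO mice. Its defining genes *Tmem212* and *Ccdc153* had no UMI, and neither had *S100b* or *Nnat*. The summed ependymal list was at 2137 and 1963 CPM in *Angpt2*-WT and 1817 and 1378 CPM in *Angpt2*-KO mice, of which *Dbi* made up most.

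*Ttr* and the 7 markers set aside, the 15 genes with the largest ratio over other endothelial droplets, at 50 CPM or more in each library, were named. *Chchd10*, a mitochondrial protein gene, was at 1936 and 1563 CPM in *Angpt2*-WT and 1526 and 1430.0 CPM in *Angpt2*-KO mice, against 2.82 to 9.54 CPM (log2 ratio 6.56). *Mt3*, a metallothionein, was at 467 and 1573 CPM in *Angpt2*-WT and 1929 and 959 CPM in *Angpt2*-KO mice (log2 ratio 6.34). *2900040C04Rik* was at 401 and 904 CPM in *Angpt2*-WT and 900.1 and 1119.9 CPM in *Angpt2*-KO mice, and *Slc22a17*, a receptor for lipocalin 2, at 835 and 1065 CPM in *Angpt2*-WT and 1168 and 1430.0 CPM in *Angpt2*-KO mice. *Col9a3*, a collagen IX chain, was at 367 and 679 CPM in *Angpt2*-WT and 615 and 626 CPM in *Angpt2*-KO mice, and *Emb* (embigin, a partner of monocarboxylate transporters) at 467 and 561 CPM in *Angpt2*-WT and 442 and 511 CPM in *Angpt2*-KO mice. All 6 were at least 367 CPM in each library. The remaining 9 were *Ptgds*, *Igfbp2*, *Kcnj13*, *Htr2c*, *Wfdc2*, *Fxyd1*, *Calml4*, *Atp1b1* and *Kcne2*. *Wfdc2*, a secreted protease inhibitor, was at 901 and 632 CPM in *Angpt2*-WT and 313 and 396 CPM in *Angpt2*-KO mice. *Calml4*, a calmodulin-like gene, was at 734 and 464 CPM in *Angpt2*-WT and 519.9 and 436 CPM in *Angpt2*-KO mice.

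Nuclear genes of oxidative phosphorylation were also high. The 12 listed genes summed to 14322 and 16878 CPM in *Angpt2*-WT and 15687 and 14484 CPM in *Angpt2*-KO mice, against 3481 to 4297 CPM in other endothelial droplets (median log2 ratio 1.65), and *Cox8a*, *Atp5g1* and *Chchd10* were called higher. *Atp5g1*, a subunit of ATP synthase, was at 1703 and 1966 CPM in *Angpt2*-WT and 1386 and 1355 CPM in *Angpt2*-KO mice. *Cox4i1*, a subunit of cytochrome c oxidase, was at 2103 and 2117 CPM in *Angpt2*-WT and 1973 and 1907 CPM in *Angpt2*-KO mice, against 451 to 573 CPM. All 12 genes had every endothelial-poor value above every other endothelial value.

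Endothelial genes were the counterpart, and the split itself used 3 of them. All 12 general endothelial genes were called lower. *Pecam1* was at 33.4 and 3.36 CPM in *Angpt2*-WT and 0 and 5.74 CPM in *Angpt2*-KO mice, against 689 to 847 CPM, and *Cdh5* at 0 and 3.36 CPM in *Angpt2*-WT and 0 and 5.74 CPM in *Angpt2*-KO mice, against 601 to 626 CPM. Of 12 genes of the blood-brain barrier endothelium 10 were called lower, among them *Slc2a1*, the glucose transporter, at 33.4 and 30.2 CPM in *Angpt2*-WT and 61.5 and 40.2 CPM in *Angpt2*-KO mice against 1280.3 to 1617 CPM. *Bsg* (basigin) stayed the most abundant of that list, at 3138 and 4319 CPM in *Angpt2*-WT and 3651 and 3653 CPM in *Angpt2*-KO mice against 9308 to 12320.4 CPM, and did not reach the call. *Vegfa*, a factor that maintains fenestrated capillaries, was at 0 and 37 CPM in *Angpt2*-WT and 83.9 and 57.4 CPM in *Angpt2*-KO mice, against 2.28 to 3.17 CPM. *Plvap*, a gene of fenestrated capillaries, had no UMI in any library, and 6 of 10 compared genes of its list were called lower. *Angpt2* was at 0 and 6.72 CPM in *Angpt2*-WT and 5.59 and 0 CPM in *Angpt2*-KO mice, against 14.4 and 13.1 CPM in *Angpt2*-WT and 63.2 and 39.4 CPM in *Angpt2*-KO mice in other endothelial droplets.

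Markers of further cell types were mostly at low summed levels in endothelial-poor droplets, with microglia genes in WT1 as the main exception. Microglia and macrophage genes had 10 of 12 listed genes detected, and their sum was 1703 and 138 CPM in *Angpt2*-WT and 33.5 and 11.5 CPM in *Angpt2*-KO mice, led in WT1 by *Csf1r* at 634 CPM and in WT2 by *Cd74* at 131 CPM. Of 35 droplets 4 held 3 or more UMIs of that list, and 1 WT1 droplet held 48. Erythroid genes summed to 467 and 30.2 CPM in *Angpt2*-WT and 67.1 and 419 CPM in *Angpt2*-KO mice, led by *Hbb-bs* in WT1 and KO2, against 5719.8 to 6608 CPM in other endothelial droplets. In KO2 1 droplet held 61 of these UMIs, so single droplets carried much of both sums. Pericyte genes had 7 of 10 at 0 and summed to 0 and 30.2 CPM in *Angpt2*-WT and 83.9 and 63.2 CPM in *Angpt2*-KO mice, led by *Vtn*, with *Pdgfrb* and *Kcnj8* at 0. Smooth muscle genes summed to 100.2 and 6.72 CPM in *Angpt2*-WT and 22.4 and 17.2 CPM in *Angpt2*-KO mice, with 4 of 8 at 0. Fibroblast genes summed to 134 and 37 CPM in *Angpt2*-WT and 33.5 and 63.2 CPM in *Angpt2*-KO mice, led by *Col1a2*, with the defining *Dcn*, *Lum* and *Col1a1* at 0. The mural and fibroblast sums thus rest on a few UMIs and few genes. Lymphocyte genes summed to 100.2 and 118 CPM in *Angpt2*-WT and 11.2 and 5.74 CPM in *Angpt2*-KO mice, led by *Cd79a* in WT2 and *Ptprc* in WT1, with *Cd3e* at 0. Astrocyte genes summed to 100.2 and 16.8 CPM in *Angpt2*-WT and 11.2 and 45.9 CPM in *Angpt2*-KO mice with *Gfap* at 0, oligodendrocyte genes to 66.8 and 37 CPM in *Angpt2*-WT and 16.8 and 40.2 CPM in *Angpt2*-KO mice with *Mog* at 0, and neuron genes to 33.4 and 6.72 CPM in *Angpt2*-WT and 11.2 and 23 CPM in *Angpt2*-KO mice with *Snap25* at 0. The part of these cell types in the levels given above was not tested.

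Immediate early and heat shock genes, which respond to stress, were low in endothelial-poor droplets. Of 10 compared, 6 were called lower (6.83% of all compared genes were) and none higher, and the list summed to 1369 and 242 CPM in *Angpt2*-WT and 145 and 269.9 CPM in *Angpt2*-KO mice, against 4684 to 7237 CPM. The value in WT1 was the highest. *Fos* was at 167 and 37 CPM in *Angpt2*-WT and 11.2 and 11.5 CPM in *Angpt2*-KO mice, against 803 to 1098 CPM. Interferon response genes had 5 of 8 called lower, at 100.2 and 181 CPM in *Angpt2*-WT and 162 and 247 CPM in *Angpt2*-KO mice in sum against 1807 to 2889 CPM, while *Bst2* was at 33.4 and 114 CPM in *Angpt2*-WT and 101 and 212 CPM in *Angpt2*-KO mice, against 232 to 332 CPM in ECs. The 8 cell cycle genes summed to 66.8 and 23.5 CPM in *Angpt2*-WT and 44.7 and 23 CPM in *Angpt2*-KO mice, and *Mki67* and *Top2a* had no UMI.

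The mitochondrial limit removed more endothelial-poor droplets than it kept in 3 of 4 mice. A further 71 droplets with over 500 genes met the *Ttr* and marker terms at 10% mitochondrial UMIs or more, 29 and 25 in the *Angpt2*-WT mice and 4 and 13 in the *Angpt2*-KO mice. Of these, 55 were endothelial-poor (22 and 16 in the *Angpt2*-WT and 4 and 13 in the *Angpt2*-KO mice) and 16 mixed. Of all 90 endothelial-poor droplets on either side of the limit, 61.1% lay at or above it (40% in KO1), against 2.28% of all 18419 droplets with over 500 genes and 1.05% of other endothelial droplets. The 55 endothelial-poor droplets above the limit had a median of 26.3% mitochondrial UMIs (10.1 to 63.3) and 15.3% *Ttr*. Of UMIs that were not mitochondrial, *Ttr* made up 29.7% above the limit and 34.8% inside it, with no common direction between mice. It was lower above the limit in WT1 (22.3 against 35.5%) and WT2 (33.3 against 39.8%), and slightly higher in KO1 (35.6 against 34.8%) and KO2 (27.2 against 26.2%). Another 22 barcodes with 500 genes or fewer met the same terms. The members describe only the droplets under the limit.

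**Figure D3:**
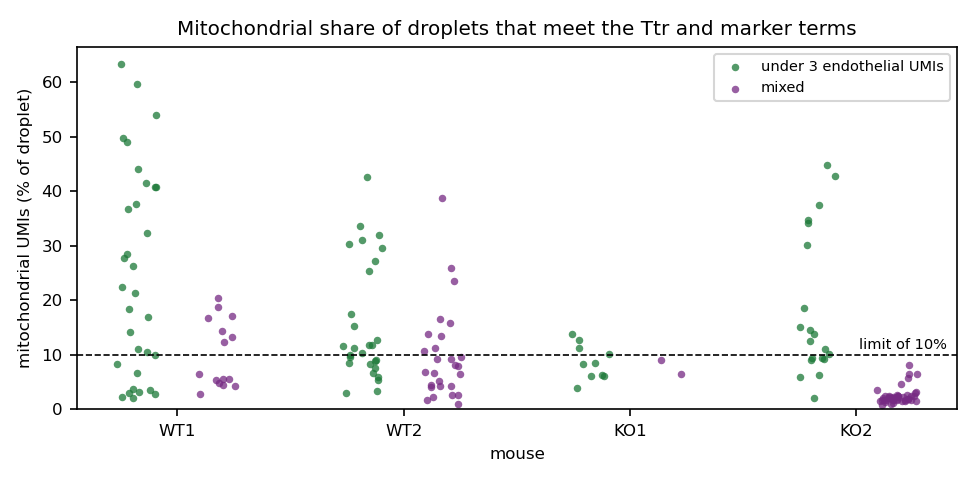
Mitochondrial share (vertical axis, percent of UMIs of a droplet) of all droplets with over 500 genes that met the *Ttr* and marker terms, by mouse, for endothelial-poor (left, under 3 endothelial UMIs) and mixed (right) droplets, with the limit of 10% as a dashed line. Most endothelial-poor droplets lie above the line, up to 63.3%, and all mixed droplets of KO2 lie under it, with a median of 2.03%.

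Mixed droplets held endothelial RNA in every mouse, at a lower median share than other endothelial droplets. Their median share of *Kdr*, *Cldn5* and *Flt1* was 0.743% and 0.501% of UMIs in the *Angpt2*-WT mice and 0.123% and 0.704% in the *Angpt2*-KO mice, against 0.956%, 1.03%, 0.930% and 0.990% in the other endothelial droplets of the same mice. Their median *Ttr* share was 2.14% in KO2, 1.41% in WT1, 7.39% in WT2 and 24.7% in KO1. Of 71 mixed droplets 47 were under 5% *Ttr* and 11 reached 20%. A set of 7, of which 5 came from WT2, held under 0.1% endothelial UMIs and a median of 34.4% *Ttr*, so they resembled the endothelial-poor droplets in both values. The other 64 held a median of 1.96% *Ttr*. These values are fixed by the rule and the split, and are given as a description.

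Mixed droplets of KO2 were deep. Their median was 16565 UMIs and 5220 genes, against 4155 UMIs and 1892 genes in other endothelial droplets of KO2, and their median mitochondrial share was 2.03%. All 7 markers were found in 27 of the 43. In WT1 the 8 mixed droplets had a median of 1252.5 UMIs and 2 markers, just at the rule. They held 11 to 29 *Ttr* UMIs each, and *Ttr* was found in 97.1% of the other endothelial droplets of WT1.

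The droplets next below the *Ttr* limit were also mostly from KO2. Between 0.5% and 1% *Ttr* with 2 or more markers there were 109 droplets in KO2, 7 in WT1, 8 in WT2 and none in KO1. Just outside the threshold, at 0.8% to 1%, were 26 droplets, and just inside, at 1% to 1.2%, were 11. On the marker term, 21 droplets with at least 1% *Ttr* had 1 marker and 27 had none. Most of these were from WT1, with 18 and 21, and KO2 held 1 of each. On the endothelial split, 5 members had 2 UMIs and 2 members had 3. With the split moved to 1 UMI the endothelial-poor droplets numbered 23, and with the split at 10 UMIs 49. Neither limit thus fell in a gap without droplets.

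*Ttr* RNA was also widespread outside the members. In other endothelial droplets at least 1 *Ttr* UMI was found in 97.1% and 95.3% in the *Angpt2*-WT mice and 40.8% and 68.4% in the *Angpt2*-KO mice, with levels of 656, 541, 56.2 and 639 CPM. Microglia droplets, which should lack the gene, had it in 100%, 94.8%, 37.9% and 71.5%, at 1406, 1087, 98.3 and 454 CPM. The median depths were 5571, 4812, 7851 and 4155 UMIs in the endothelial class and 4331, 3790, 6054 and 3320 in microglia droplets. The intervals of both classes overlapped in WT2, KO1 and KO2, so a single *Ttr* UMI was read as background. KO1 had the lowest background and the fewest members.

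*Folr1* and *Enpp2*, both used by the rule, are given as a description. *Folr1* was found in 31 of 35 endothelial-poor droplets (88.6%) and 70.4% of mixed droplets, against 1.38% of other endothelial and 1.17% of microglia droplets, with median depths of 4984, 14701, 5104.5 and 4200 UMIs. Thinned to 1500 UMIs a droplet, these shares were 75.8%, 33.9%, 0.304% and 0.301%. *Enpp2* is different, because ECs hold it in 40.8% of droplets against 7.41% of microglia droplets (14.9% and 3.16% when thinned). *Enpp2* was in all 35 endothelial-poor droplets.

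The median percentage of epithelial genes outside the rule lay near that of *Ttr* in mixed droplets, with a wide spread between genes. For 12 such genes, chosen after the values were seen, the level in mixed droplets was taken as a percentage of the level in endothelial-poor droplets of the same mouse. In KO2 the median was 31.5% (18.8 to 66.4), where *Ttr* was at 28.6%. In WT2 it was 91.4% (72.8 to 106.5), where *Ttr* was at 83.3%. Of its 18 mixed droplets, 5 had under 0.1% endothelial UMIs, with a median of 35.3% *Ttr*, against 2.76% in the other 13. The summed level thus does not describe a typical mixed droplet of WT2. In the 13 WT2 droplets with at least 0.1% endothelial UMIs, a set chosen after the values were seen, the sums were also compared. There the median over the 12 genes was 65.7% (37.6 to 103) and *Ttr* was at 56.5%. In WT1, with 10255 UMIs in the class, it was 2.52% (0 to 34.4) and *Ttr* was at 4.62%. In KO1, with 2 mixed droplets, the lowest gene was at 51.1%, the median at 107.7% and *Ttr* at 96.8%. The highest there was *Cldn2*, a claudin of this epithelium, at 347 CPM in mixed and 173 CPM in endothelial-poor droplets. *Igfbp2* in KO2 was at 748 CPM in mixed and 2136 CPM in endothelial-poor droplets, and *Ptgds* at 551 and 2194 CPM. *Otx2* departed most in KO2, at 141 and 212 CPM. *Ttr* and the 7 markers set aside, the 10 genes with the largest ratio of mixed over other endothelial droplets, at 50 CPM or more in WT1, WT2 and KO2 each, were *Igfbp2*, *Ptgds*, *Mt3*, *Chchd10*, *Col9a3*, *Slc22a17*, *Fxyd1*, *Spint2*, *Atp1b1* and *Emb*, of which only *Spint2*, a protease inhibitor, is not among the 15 genes of the endothelial-poor class. In WT1, where 1 UMI was worth 97.5 CPM, 7 of the 10 had a single UMI, and *2900040C04Rik* and *Kcnj13*, with larger ratios than *Emb*, had none and were left out by this limit.

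**Figure D4:**
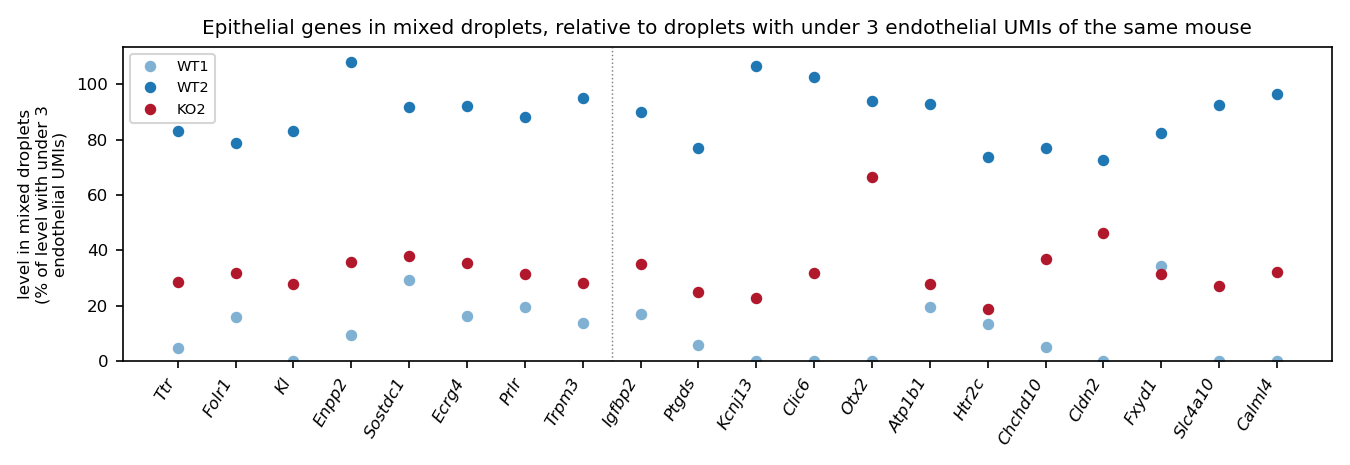
Level of *Ttr*, the 7 markers of the rule (left of the dotted line) and 12 epithelial genes outside it in mixed droplets, as a percentage of the level in endothelial-poor droplets of the same mouse (vertical axis). Values of WT2, which include 5 droplets with under 0.1% endothelial UMIs, lie near 90%, those of KO2 mostly near 30% and those of WT1 mostly under 20%, and KO1 is not drawn because it had 2 mixed droplets.

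The endothelial side of mixed droplets was examined with *Plvap*, which forms the diaphragms of fenestrated capillaries such as those of the choroid plexus and took no part in the rule. Per 100 UMIs of *Pecam1* and *Cdh5*, mixed droplets of KO2 held 0.476 *Plvap* UMIs (5 of 1051), against 11.3 in other endothelial droplets of KO2. Mixed droplets of WT2 held 0 of 95, against 16.4 per 100. Counted as independent UMIs, 0 of 95 allows up to 3.16 per 100. *Plvap* was in only 7.57% of the other endothelial droplets of WT2, which this limit does not take into account, so the level can be higher. Mixed droplets of WT1 held 1 *Plvap* UMI against 10 of the reference genes, which is 10 per 100, against 9.97. *Plvap* was thus lower in 2 of 3 mice on this scale, and the WT1 value rests on 1 UMI. By droplets the order in KO2 differed, as 5 of 43 mixed droplets of KO2 held a *Plvap* UMI against 5.64% of its other endothelial droplets, at median depths of 16565 and 4155 UMIs. In WT2 0 of 18 mixed droplets held a *Plvap* UMI, against 7.57% of its other endothelial droplets. In WT1 1 of 8 did, against 4.72%. The mean difference was -9.07 per 100 (SD 8.37, n = 3), with p = 0.5 in a two-sided exact sign-flip permutation test, for which 3 mice allow no p under 0.25. Without WT1 the mean difference was -13.6, and without WT2 it was -5.39, with p = 1 in the same exact test, for which 2 mice allow no p under 0.5. KO1 had only 2 mixed droplets and was not used.

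Further genes of fenestrated endothelium were compared on the same scale. Of all genes at 10 CPM or more in either class, 7.97% were lower per *Pecam1* and *Cdh5* UMI in mixed droplets of WT2, 18.7% in KO2 and 65.7% in WT1. All genes include those of the epithelium, so endothelial lists are the closer comparison. Of the 12 general endothelial genes, which include *Pecam1* and *Cdh5*, 5 were lower in WT2, 6 in KO2 and 5 in WT1. Of 12 barrier genes 1 was lower in WT2, 9 in KO2 and 6 in WT1. Of 12 listed fenestrated genes 9 were lower in WT2 and 9 in KO2, and 7 in WT1. In CPM 10 were lower in WT2, against 72.8% of all genes, 10 in KO2, against 47.4%, and 8 in WT1, against 70.3%, so the contrast with all genes was smaller on that scale in WT2 and KO2. In KO2 *Plpp3*, a lipid phosphate phosphatase gene, was at 4.57 per 100 in mixed and 18.2 in other endothelial droplets. In WT2 it was at 8.42 and 20.6, whereas in WT1 it was at 50 and 15.6. *Igfbp3* also went the other way in WT1, at 50 against 14.2 per 100, with 4.95 against 16.3 in KO2 and 0 against 17.4 in WT2. Higher in mixed droplets of WT2 were *Plpp1* (40 against 12.8 per 100), *Ednrb* (24.2 against 2.26) and *Cyp1b1* (1.05 against 0.0682). Higher in those of KO2 were *Nrp2* (17.9 against 10.6), *Ednrb* (2.47 against 1.90) and *Cyp1b1* (0.856 against 0.0696). The summed list was at 170 and 88.8 per 100 in WT1, where 10 reference UMIs set the scale. In KO2 droplets of 12000 UMIs or more, a choice made after the values were seen, *Plvap* was at 0.419 per 100 in 30 mixed droplets and 17.7 in 505 other endothelial droplets, and 10 of the 12 listed genes were lower, against 19.2% of all genes. In CPM 11 of 12 were lower there, against 55.7% of all genes. Of the 12 barrier genes, 8 were lower there per reference UMI and 12 in CPM.

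Barrier genes shifted between scales in WT2 as genes at large did. Per reference UMI, 11 of 12 were higher in mixed droplets of WT2, against 92% of all genes, and in CPM, a scale added after the values were seen, none was, against 27.2%. In KO2 9 of 12 were lower per reference UMI and all 12 in CPM, with sums of 18849 against 27242 CPM, where 81.3% of all genes were higher per reference UMI. In WT1 6 of 12 were higher per reference UMI, against 34.3% of all genes, and 1 of 12 in CPM, against 29.7%. *Slc2a1* was at 126 and 111 per 100 in KO2, and at 1389 and 1617 CPM.

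The order of pericyte and immediate early genes in KO2 depended on depth and scale. All 10 genes of either list were higher in its mixed droplets per reference UMI, against 81.3% of all genes, and 10 and 9 of 10 in CPM, against 52.6%. At 12000 UMIs or more in both classes 8 pericyte and 9 immediate early and heat shock genes of 10 were higher per reference UMI, against 80.8%, and 4 and 7 of 10 in CPM, against 44.3%. There the pericyte list summed to 1937 and 1941 CPM, and *Rgs5*, a pericyte marker, was at 979 CPM in mixed and 989.5 CPM in other endothelial droplets. *Fos* was at 1567 and 1376 CPM, and the immediate early and heat shock list at 7639 and 7869 CPM. At this depth the CPM sums of both lists thus lay close together. The part of further cell types in these values was not tested.

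**Figure D5:**
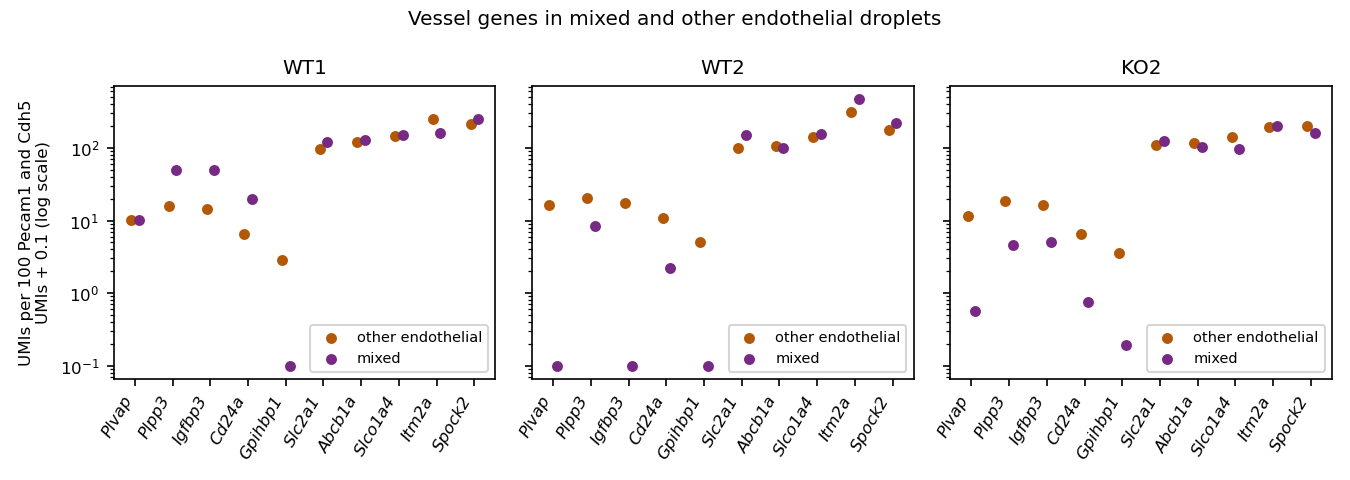
Fenestrated (first 5) and barrier genes (last 5) in mixed and other endothelial droplets of WT1, WT2 and KO2 (vertical axis, UMIs per 100 *Pecam1* and *Cdh5* UMIs + 0.1, log scale). The 5 drawn fenestrated genes are lower in mixed droplets of WT2 and KO2 but not all in WT1, where mixed droplets held 10 reference UMIs. The 5 drawn barrier genes differ less in WT2 and KO2. Both sets are part of lists of 12, and genes that are not drawn can differ. In WT2 the fenestrated gene *Plpp1* was higher in mixed droplets, at 40 against 12.8 per 100. The 12 barrier genes there summed to 5593 against 2254 per 100.

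Genes higher in mixed droplets than in both other classes were sought. With a mean over WT1, WT2 and KO2 of 50 CPM or more in mixed droplets, the 10 genes with the largest excess were *Kif5a*, *5830416I19Rik*, *F830016B08Rik*, *Tpm2*, *Txnrd2*, *Atp23*, *Sec61a1*, *Klhl13*, *Gm47644* and *Pde6a*, with log2 excesses of 2.02 to 3.12. They rest on WT1, where 1 UMI was worth 97.5 CPM, and *Kif5a* was at 293 CPM there, 12.2 CPM in WT2 and 0 in KO2. In KO2 alone, a choice made after these values were seen, the largest excess was for *Fbln5*, a protein of elastic fibres, at 164 CPM in mixed, 11.5 in endothelial-poor and 27.5 in other endothelial droplets. *Mgp*, a matrix protein that binds BMP, was at 1232, 5.74 and 406 CPM, *Gkn3* at 283, 0 and 95.3 CPM, and *Eln* (elastin) at 182, 0 and 64.7 CPM. These levels were also above those of the other endothelial droplets of KO2 with 12000 UMIs or more, at 48.3, 686, 127 and 109 CPM in the same order. Fibroblast and smooth muscle genes were compared beside them. Of 10 fibroblast genes 9 were higher in CPM in KO2, against 52.6% of all genes, with sums of 373 against 201 CPM, and 8 at 12000 UMIs or more, against 44.3%, with 352 against 286 CPM. Of 8 smooth muscle genes 4 were higher in CPM in KO2, with sums of 836 against 665 CPM, and 2 at 12000 UMIs or more, with 777 against 1023 CPM. Per reference UMI 7 of the 8 were higher in KO2, against 81.3% of all genes, and 4 at 12000 UMIs or more, against 80.8%. The smooth muscle sum was thus not higher in CPM at this depth, while the fibroblast sum was. In mixed droplets of WT1 the smooth muscle sum was 4388 against 583 CPM, and in those of WT2 it was 10.1 against 479.7 CPM. Of 43 mixed droplets of KO2, 33 held 3 or more UMIs of the fibroblast list and 35 of the smooth muscle list. *Col3a1*, a fibrillar collagen gene, was at 90.9, 5.74 and 29.5 CPM in the 3 classes. The part of fibroblast and smooth muscle RNA in these levels was not tested. In WT2, where endothelial marker UMIs made up 0.18% of summed mixed and 1.01% of summed other endothelial UMIs, the order depended on the gene and scale. *Fbln5* was at 8.10 CPM in mixed and 25.2 CPM in other endothelial droplets of WT2, but at 4.21 and 1.91 per 100 *Pecam1* and *Cdh5* UMIs. *Mgp* was lower on both scales, at 12.2 and 300.3 CPM and at 6.32 and 22.8 per 100. Mixed droplets of WT1 held no UMI of *Fbln5* or *Mgp*.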

How the data were processed

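Vascular fragments of 4 mice (WT1, WT2, KO1, KO2) were sequenced, 1 library each. The authors deposited raw counts of UMIs for each gene in barcodes called as cells, with no normalization. Cell Ranger is given as 6.1.2 in the submitters' processing notes and as 6.1.1 in the file header. The study's filters were applied (over 500 genes, under 10% mitochondrial UMIs). Members and gene lists were chosen with earlier results of these data known. Members were split at 3 *Kdr*, *Cldn5* and *Flt1* UMIs. No doublet caller was run, and the methods name no removal of doublets.

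UMIs were summed per library and class and given as CPM of the sum, since cells are not replicates. Ratios used CPM + 10, and the 4-fold call was chosen after the values were seen. Genes at 0 allow up to 3 UMIs of the sum. Shares have exact 95% intervals. *Plvap* was compared within mice by an exact sign-flip test. Named genes were *Ttr* and the markers, the most abundant members of each list and those at 0, 15 genes outside the rule with the largest ratio of endothelial-poor over other endothelial droplets, 10 of mixed over other endothelial droplets (both at 50 CPM or more in each library), and 10 of mixed over both (at a mean of 50 CPM or more). Other genes named within lists were chosen after their values were seen. Python 3.11.15, numpy, pandas and scipy were used, and the call and the sign-flip test were tested on simulated data. Alternatives were other *Ttr*, marker, mitochondrial, gene and endothelial limits, thinning to 1500 UMIs and leaving out each mouse. The yfp sequence in the reference had 0 UMIs in all libraries. For mixed against other endothelial droplets, the CPM scale, the KO2 droplets of 12000 UMIs or more and the mixed droplets with at least 0.1% endothelial UMIs were chosen after the values were seen.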

Additional observations from a re-analysis of the deposited data

Results flagged for a closer look

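The 71 droplets at or above the 10% mitochondrial limit that met the *Ttr* and marker terms lie outside the members and their comparisons. They stand out because 55 of them were endothelial-poor, against 35 among the members. Their median mitochondrial share was 34.6% and 21.4% in WT1 and WT2, and 11.9% and 18.6% in KO1 and KO2, for the endothelial-poor ones. The cause was not tested. Groups of 2 mice were too small for a check of outlying samples.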

How the results depend on the processing

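The number of members was 230 with *Ttr* from 0.5%, 56 with *Ttr* from 5%, 63 under 5% mitochondrial UMIs, 177 with no mitochondrial limit, and 56 to 98 with 1 mouse left out (the lowest without KO2). Endothelial-poor droplets numbered 23 with the split at 1 UMI, 11 under 5% mitochondrial UMIs, 90 with no mitochondrial limit, and 23 to 29 with 1 mouse left out (23 without WT2). Mixed droplets numbered 192, 38 and 24 with *Ttr* from 0.5%, 2% and 5%, and 28 to 69 with 1 mouse left out (28 without KO2). The share of members from KO2 was 69.1% and 33.9% with *Ttr* from 0.5% and 5%, 63.5% under 5% mitochondrial UMIs, 35.6% with no mitochondrial limit, and 51.0% to 65.8% with 1 other mouse left out (65.8% without WT2). The *Ttr* share of endothelial-poor droplets was 19.4% under 5% mitochondrial UMIs and 26.0% with no limit, and 30.1% to 34.2% with 1 mouse left out. These counts follow from fewer or more droplets meeting the terms. The *Plvap* difference was negative in the 16 alternatives that could change it, from -5.39 (without WT2) to -14.7 per 100 (under 5% mitochondrial UMIs) and -137 CPM for *Plvap* in CPM. In 7 of them 3 mice gave two-sided exact permutation p from 0.25 to 0.5, with 0.25 the smallest possible, and in 9 only 2 mice were left, with p from 0.5 to 1 and 0.5 the smallest possible. KO1 had too few mixed droplets to enter. No paired analysis was possible because pairs enter only a test, and no test between genotypes was made; the *Plvap* difference was taken within each mouse. The labels number the mice 1 and 2 in both genotypes, so a genotype test could have used these numbers as pairs, and they do not say whether a number marks an experiment. Levels in endothelial-poor and mixed droplets of WT1 rest on the fewest UMIs.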
